A study of Arabidopsis thaliana with 12 samples.

Results

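Class III peroxidases are a plant family of haem enzymes that are secreted to the cell wall and the vacuole. They were read here as transcripts in roots of Arabidopsis thaliana from 60 listed loci of the family. A gene entered when the annotation of the array gave it a probe set of its own, and 43 of the 60 loci did. All 43 have a single such probe set, so no choice between probe sets by brightness arose. Another 6 loci share 3 probe sets that cannot separate them, and 11 were not listed by the annotation, so these 17 were not analysed here. The 43 genes stand against 22746 probe sets tested in all. The family was chosen by the changes of its members in these same comparisons. Counts of members are therefore a description, and the share of all probe sets is given beside the counts over the whole family.

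The enzymes use hydrogen peroxide to oxidise phenolic compounds and can also produce reactive oxygen. In the wall they couple lignin and suberin phenols and cross-link extensins, which stiffens it, while the radicals they make can loosen it. In roots the family is known for the lignin of the Casparian strip and the xylem, for the growth of root hairs, and for the balance of reactive oxygen between the meristem and the elongation zone.

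The 12 Affymetrix arrays measured total RNA of roots from WT (wild type) and from hni9, which is mutated in the transcript elongation factor HNI9/IWS1. Plants were kept at steady state either at high nitrogen, 10 mM NH4NO3, or at low nitrogen, 0.3 mM KNO3, so a change of amount cannot be told apart from one of form. Each combination of genotype and supply held 3 biological replicates. The age of the plants, the accession and the kind of mutation are not given in the sources used here. In the titles the mutant is written hni9-1 in replicate 1, hni9-2 in replicate 2 and plain hni9 in replicate 3. Whether that number is an allele is not given either, so the spread within hni9 may hold a difference between alleles. HNI9 itself was not analysed here.

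Values are probe set intensities on a linear scale, listed in the order of replicates 1, 2 and 3. Each array had been scaled to a trimmed mean of 500. Changes are log2 fold changes of the intensity plus 16, given ± standard error with n = 3 arrays a group. Adjusted p-values come from limma with Benjamini-Hochberg adjustment over all probe sets, and a member is said to rise or fall at an adjusted p under 0.05. In 37 of the 43 genes the highest group mean exceeded 215, the median of the mean intensities of all probe sets. The other 6 were dim in every group.

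Some arrays stood apart for these genes. Replicate 2 was the lowest of the 3 hni9 arrays for 27 of the 43 genes at high nitrogen and for 27 at low nitrogen, and for 19 at both. Among probe sets brighter than the median it was the lowest for 32.9% and 31.5%, and for 15.5% at both. The largest count for a WT array was 22, for replicate 1 at high nitrogen. The GAPDH control probe sets, read as 3′ over 5′ end for a sign of RNA quality, gave 1.31 to 1.35 in WT at high nitrogen. The other arrays gave 0.922 to 1.27, and the part of this ratio in the results was not tested. None of 8 green tissue markers had a probe set of its own, so 10 nuclear photosynthesis genes with one were read in their place, a list added after values were seen. Their summed intensity was 2435 to 3496 in WT and 1236 to 2108 in hni9 at high nitrogen, and 2155 to 2325 in WT at low nitrogen. In hni9 at low nitrogen it was 5026 in replicate 1 and 1340.0 and 1062 in replicates 2 and 3. In each comparison 0 of the 10 passed by limma, and their median change was -0.94 for hni9 against WT at high nitrogen, where 10 had a negative value. Their part in the peroxidase results was not tested. EXPA7 and EXPA18, expansins of root hairs, were well above the median of all probe sets in each group (means of 510.4 to 1002).

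Across the family most changes were losses, of the mutant against WT and of low against high nitrogen. At an adjusted p under 0.05, 7.67% of all probe sets passed for genotype at high nitrogen, 2.06% for genotype at low nitrogen, 5.74% for nitrogen in WT and 5.1% for nitrogen in hni9. In hni9 against WT at high nitrogen 11 of 43 members fell and 3 rose, where 4.33% and 3.34% of all probe sets did. At low nitrogen 9 fell and 2 rose, against 1.33% and 0.73%. Low against high nitrogen gave 9 falls and 3 rises in WT, against 2.9% and 2.84% of all probe sets, and 13 falls and 3 rises in hni9, against 2.12% and 2.98%. Bright probe sets pass more often: among those above the median intensity the falls were 7.39%, 2.41%, 4.63% and 3.43% in the same order. The median change of the 43 genes was -0.27 for hni9 at high nitrogen, -0.46 for hni9 at low nitrogen, -0.14 for low nitrogen in WT and -0.34 for low nitrogen in hni9. Over all probe sets these medians lay between -0.05 and 0.03. In bulk tissue, fewer cells that express a gene and less of its RNA per cell cannot be told apart.

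Counts of arrays that lay apart need no test. All 3 hni9 arrays lay under all 3 WT arrays for 20 of 43 genes at low nitrogen, against 9.64% of all probe sets, and for 15 at high nitrogen, against 12.3%. They lay above for 4 genes at each supply, against 8.68% at low and 13.5% at high nitrogen. All 3 arrays at low nitrogen lay under all 3 at high nitrogen for 13 genes in WT, against 13.3%, and 15 in hni9, against 11.4%. They lay above for 7 in WT, against 11.6%, and 5 in hni9, against 8.21%. The highest of the 4 group means was in WT at high nitrogen for 18 genes, in WT at low nitrogen for 12, in hni9 at high nitrogen for 9 and in hni9 at low nitrogen for 4. Over all probe sets these shares were 27.1%, 21.6%, 32.5% and 18.8%. The lowest mean was in hni9 at low nitrogen for 19 genes, in hni9 at high nitrogen for 11, in WT at low nitrogen for 10 and in WT at high nitrogen for 3, against 26.5%, 21.8%, 26.7% and 25% of all probe sets. In all, 30 of the 43 genes passed in at least 1 of the 4 comparisons, against 13.9% of all probe sets.

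**Figure D1:**
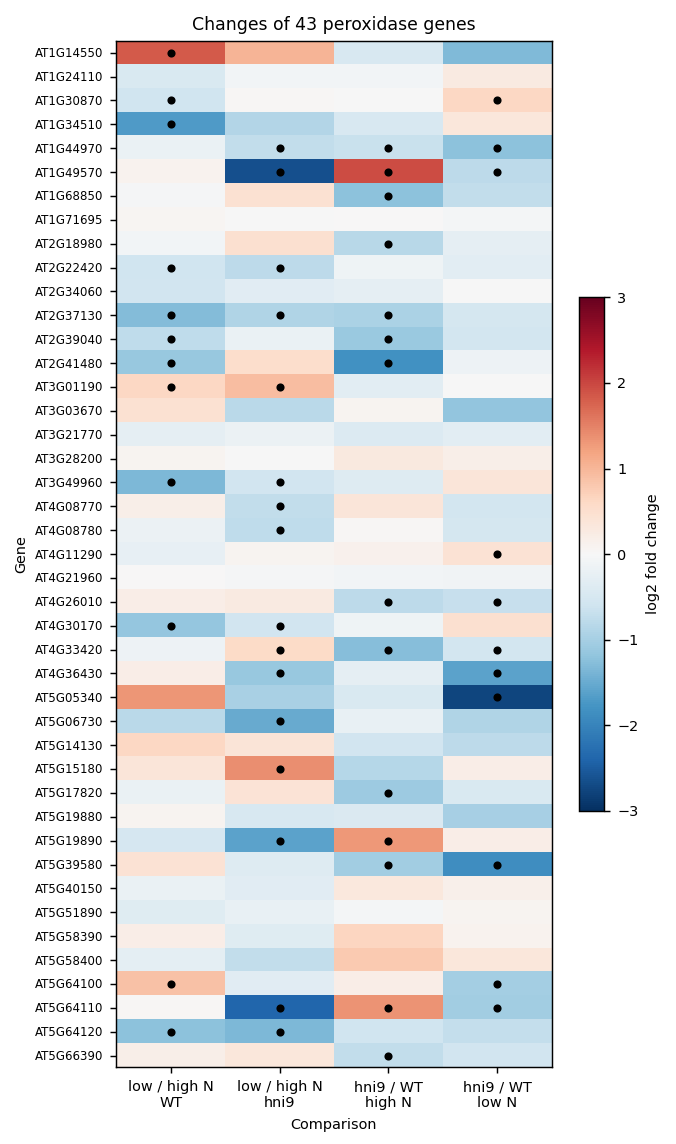
Log2 fold changes of the 43 peroxidase genes (rows) in the 4 comparisons between groups of 3 arrays (columns), with red for higher and blue for lower and a dot where the adjusted p is under 0.05. Blue cells prevail in each column, and the columns of hni9 hold the deepest ones, AT1G49570 at low over high nitrogen and AT5G05340 in hni9 over WT at low nitrogen.

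Of the 9 loci listed for lignification 7 were measured. Of these, 3 fell in hni9 against WT at high nitrogen and 2 at low nitrogen, and 0 rose. Of all probe sets 4.33% and 1.33% fell in these comparisons, and 7.39% and 2.41% of those brighter than the median. AT2G41480 (PRX25), whose loss is known to lower stem lignin, read 671, 925 and 809.9 in WT at high nitrogen, 322, 317 and 423 in WT at low nitrogen, 196, 195 and 259.9 in hni9 at high nitrogen and 278, 357 and 316 in hni9 at low nitrogen. WT at high nitrogen lay apart from the other 3 groups with no overlap. The gene fell by 1.81 ± 0.17 in hni9 at high nitrogen (adjusted p = 1.72e-05) and by 1.14 ± 0.17 from high to low nitrogen in WT (adjusted p = 0.000847). At low nitrogen the genotypes differed by -0.15 ± 0.17, with an interval of -0.51 to 0.21, and the interaction, which subtracts the genotype change at low nitrogen from that at high nitrogen, was -1.66 ± 0.24 (adjusted p = 0.00553). The interaction call was lost without the intensity trend of limma (adjusted p = 0.05, just over the threshold) and with replicates 1 and 2 alone (adjusted p = 0.0864).

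AT4G33420, linked to the lignin of xylem vessels, read 1902, 2081 and 2184 in WT at high and 1749.7, 1739 and 2106 in WT at low nitrogen, against 856, 781 and 887 and 1261, 1251 and 1295 in hni9. Every hni9 array lay under every WT array. It fell in hni9 by 1.27 ± 0.09 at high (adjusted p = 2.26e-06) and by 0.54 ± 0.09 at low nitrogen (adjusted p = 0.00766). Within hni9 it rose from high to low nitrogen by 0.59 ± 0.09 (adjusted p = 0.00187), while WT had -0.14 ± 0.09 with an interval of -0.34 to 0.06. The interaction was -0.73 ± 0.13 (adjusted p = 0.0217), a call lost without WT replicate 2 or 3 at high nitrogen, WT replicate 1 or 2 at low nitrogen or hni9 replicate 1 at low nitrogen (adjusted p from 0.0518 to 0.075).

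PRX52 (AT5G05340), an enzyme of lignin in stem fibres, was dim outside WT at low nitrogen, where it read 310.4, 447 and 349. It read 127, 163 and 118 in WT at high nitrogen, 117, 33.9 and 187 in hni9 at high nitrogen and 44.5, 30.5 and 48.2 in hni9 at low nitrogen. In hni9 the arrays at high nitrogen spread widely and overlapped both those of hni9 at low nitrogen and those of WT at high nitrogen. The gene fell by 2.75 ± 0.40 in hni9 at low nitrogen (adjusted p = 0.0021). The nitrogen response was 1.33 ± 0.40 in WT (adjusted p = 0.07) and -0.96 ± 0.40 in hni9 (adjusted p = 0.234), and the interaction of 2.30 ± 0.56 missed the threshold (adjusted p = 0.0959). Without hni9 replicate 2 at both supplies, an alternative chosen after seeing the data, the interaction was 2.73 with an adjusted p of 0.00304. At high nitrogen that alternative drops the hni9 array that overlapped those of hni9 at low nitrogen, so it gives no separate support for an interaction.

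PRX71 (AT5G64120), which affects stem lignin and cell expansion, read 5674, 6582 and 6396 in WT at high and 2419, 3143 and 2428 in WT at low nitrogen. The hni9 arrays read 3459, 6471 and 3006 at high and 1582, 1437 and 1772 at low nitrogen. Replicate 2 of hni9 at high nitrogen lay with the WT arrays and the other 2 well under them. Low nitrogen lowered the gene in both genotypes, with changes of -1.23 ± 0.21 in WT (adjusted p = 0.00274) and -1.35 ± 0.21 in hni9 (adjusted p = 0.00147). The genotype difference was -0.61 ± 0.21 at high (adjusted p = 0.102) and -0.73 ± 0.21 at low nitrogen (adjusted p = 0.104). Without hni9 replicate 2 at both supplies these were -0.94 (adjusted p = 0.000387) and -0.65 (adjusted p = 0.0122). That alternative was chosen after seeing the data. At high nitrogen it drops the hni9 array that lay with WT, so it gives no separate support for a difference.

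PRX72 (AT5G66390), an enzyme of lignin polymerisation, fell by 0.74 ± 0.20 in hni9 at high nitrogen (adjusted p = 0.0321), from 2234, 2677 and 2734 to 1908, 1149 and 1576. That call was lost without WT replicate 2 or 3 at high nitrogen or hni9 replicate 2 or 3 at high nitrogen (adjusted p from 0.0702 to 0.112). At low nitrogen PRX72 read 2725, 3176 and 2781 in WT and 2323, 1359 and 2258 in hni9, also with no overlap. That change of -0.58 ± 0.20 did not pass (adjusted p = 0.171). The interaction of -0.16 ± 0.28 did not pass either (adjusted p = 0.899), so a difference between the supplies was not shown. AT2G22420, active in lignifying tissue, fell with low nitrogen in both genotypes, from 447, 377 and 449 to 294, 226 and 309 in WT and from 393, 384 and 385 to 208, 267 and 183 in hni9. The groups did not overlap within either genotype. The changes were -0.60 ± 0.16 in WT (adjusted p = 0.0464) and -0.79 ± 0.16 in hni9 (adjusted p = 0.0107). The call in WT was lost without WT replicate 1, 2 or 3 at high nitrogen, WT replicate 1, 2 or 3 at low nitrogen, hni9 replicate 1, 2 or 3 at high nitrogen or hni9 replicate 1 at low nitrogen (adjusted p from 0.0521 to 0.19). The last of the 7, the xylem peroxidase gene AT5G51890, passed in none of the 5 tests, with changes of -0.36 to 0.09.

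Of 6 loci listed for root hairs 3 were measured, and all 3 fell in hni9 at low nitrogen and 2 of them at high nitrogen, where 1.33% and 4.33% of all probe sets fell. AT5G39580, needed for root hair growth in the cold, read 729, 815 and 817 in WT at high and 1098, 1032 and 1062 in WT at low nitrogen. Its values in hni9 were 417, 249 and 486 at high and 277, 261 and 301 at low nitrogen. The genotypes did not overlap at either supply. It fell by 1.05 ± 0.18 at high (adjusted p = 0.00235) and by 1.87 ± 0.18 at low nitrogen (adjusted p = 5.85e-05). AT4G26010, known for extensin cross-linking in root hairs, fell by 0.78 ± 0.16 (adjusted p = 0.00946) and 0.70 ± 0.16 (adjusted p = 0.0433). It read 1872, 2109.8 and 1649 in WT and 926, 1417 and 969 in hni9 at high nitrogen, and 2155, 2273 and 2025 and 1466, 1039 and 1508 at low nitrogen. Its calls were lost at high nitrogen without WT replicate 2 at high nitrogen (adjusted p = 0.0509) and at low nitrogen without WT replicate 1, 2 or 3 at high nitrogen, WT replicate 1, 2 or 3 at low nitrogen or hni9 replicate 1 or 2 at low nitrogen (adjusted p from 0.0502 to 0.152). The third, AT5G64100, is described with its neighbours below.

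Other root hair genes were mixed in direction. Of the 14 markers listed 3 were measured. EXPA7 rose in hni9 by 0.47 ± 0.12 at high (adjusted p = 0.0235) and by 0.65 ± 0.12 at low nitrogen (adjusted p = 0.00862). EXPA18 fell by 0.86 ± 0.13 in hni9 at high nitrogen (adjusted p = 0.00102) and by 0.54 ± 0.13 from high to low nitrogen in WT (adjusted p = 0.0226). SCN1, which restricts hairs to a single site on the cell, passed in 0 of the comparisons.

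AT5G64100, AT5G64110 and AT5G64120 lie side by side on chromosome 5 with 0 other protein-coding genes between neighbours, and each went its own way. AT5G64100, also required for root hair growth in the cold, read 9582, 9689.6 and 9861 in WT at low nitrogen, above every other array. It read 5574, 5096 and 5244 in WT at high, 5552, 7114 and 5772 in hni9 at high and 4562, 4793 and 5026 in hni9 at low nitrogen. It rose with low nitrogen in WT by 0.87 ± 0.10 (adjusted p = 0.000105), and hni9 had -0.35 ± 0.10 with an interval of -0.56 to -0.14, which did not pass (adjusted p = 0.063). In hni9 at low nitrogen it fell against WT by 1.02 ± 0.10 (adjusted p = 6.94e-05), and the interaction was 1.22 ± 0.14 (adjusted p = 0.00159).

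AT5G64110 read 140.0, 207 and 178 in WT at high and 233, 147 and 159 in WT at low nitrogen, groups that overlapped. In hni9 it read 412, 566 and 431 at high nitrogen, above every WT array, and 69.4, 86.2 and 75.4 at low nitrogen, under every WT array. At high nitrogen it rose in hni9 by 1.35 ± 0.22 (adjusted p = 0.00214) and at low nitrogen it fell by 1.05 ± 0.22 (adjusted p = 0.0248). The fall was lost without WT replicate 1 or 3 at low nitrogen or hni9 replicate 1 or 3 at low nitrogen (adjusted p from 0.062 to 0.116). The nitrogen response within hni9 was -2.37 ± 0.22 (adjusted p = 2.5e-05), and the interaction was 2.40 ± 0.32 (adjusted p = 0.00396). AT5G64120, the third neighbour, is PRX71, whose fall with low nitrogen in both genotypes is given above.

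AT1G49570, on chromosome 1, had the same pattern as AT5G64110. It read 418, 348 and 360.1 in WT at high and 408, 446 and 367 in WT at low nitrogen. The hni9 arrays read 1209.8, 1739.8 and 1597 at high and 269, 211 and 207 at low nitrogen, so that hni9 lay above WT at one supply and under it at the other. The rise at high nitrogen was 1.96 ± 0.15 (adjusted p = 3e-06) and the fall at low nitrogen 0.79 ± 0.15 (adjusted p = 0.013). The fall was lost without WT replicate 1 or 2 at low nitrogen or hni9 replicate 3 at low nitrogen (adjusted p from 0.0523 to 0.0705). From high to low nitrogen the gene fell in hni9 by 2.64 ± 0.15 (adjusted p = 2.81e-07), and in WT it had 0.11 ± 0.15 with an interval of -0.21 to 0.44. The interaction of 2.75 ± 0.21 (adjusted p = 3.41e-05) had the lowest adjusted p among the 43 genes.

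**Figure D2:**
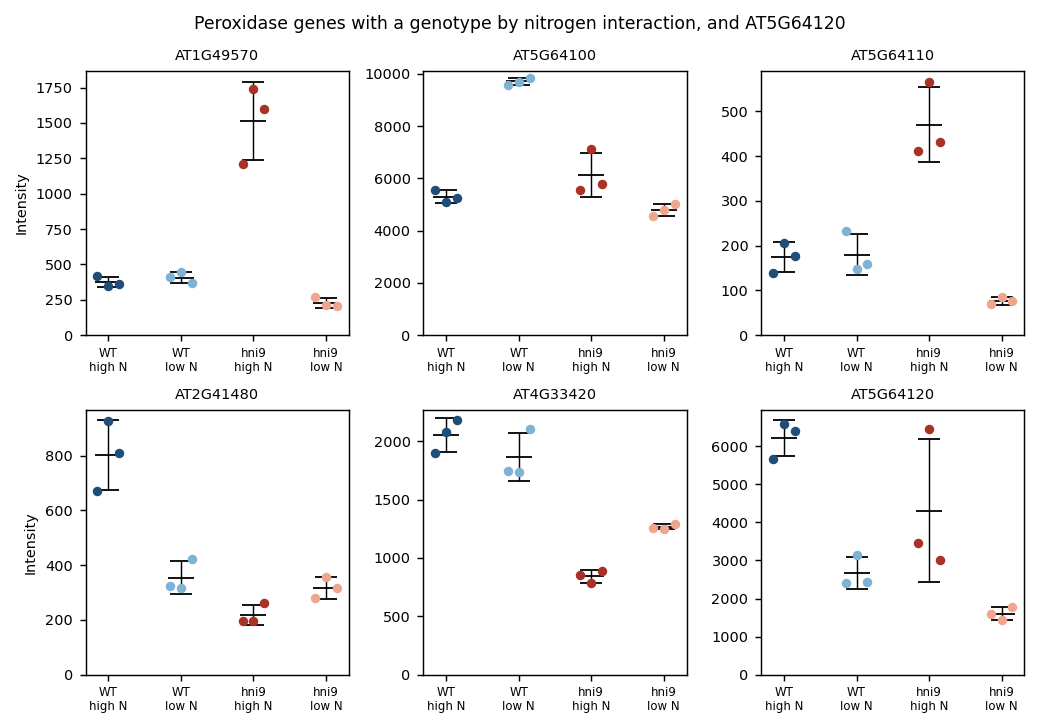
Intensity (linear axis from 0) in each array for the 5 peroxidase genes with a genotype by nitrogen interaction at an adjusted p under 0.05, and for AT5G64120. Points are the 3 arrays of a group and the bars the mean ± SD. AT1G49570 and AT5G64110 are high in hni9 at high nitrogen, AT5G64100 in WT at low nitrogen and AT2G41480 in WT at high nitrogen.

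In the interaction 5 of the 43 genes passed, against 0.703% of all probe sets. Of these, 3 were positive and 2 negative, against 0.259% and 0.444%. The count rose to 8 positive and 8 negative without hni9 replicate 2 at both supplies, when 1.78% of all probe sets passed. That alternative was chosen after seeing that replicate 2 stood apart for these same genes. The added calls are therefore a description and not further support. The genes that passed in addition were AT4G08770, AT4G08780, AT4G36430, PRX52 and AT5G39580 with positive values. Those with negative values were AT1G30870, AT2G37130, AT3G49960, AT4G30170, AT5G15180 and AT5G17820. With replicates 1 and 2 alone none of the 5 passed by limma (adjusted p from 0.0524 for AT1G49570 to 0.181 for AT4G33420), and 1 of all probe sets did. Replicate 2 was the lowest of the 3 hni9 arrays for most members, as given above, and the part of a difference between alleles was not tested.

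UPB1, a transcription factor that represses peroxidase genes in the root tip, read 322 ± 51.5 (SD) in WT at high and 268 ± 24.3 in WT at low nitrogen, and 246 ± 59.8 and 207 ± 27.9 in hni9. Its changes did not pass, at -0.38 ± 0.19 for hni9 at high (adjusted p = 0.281) and -0.35 ± 0.19 at low nitrogen (adjusted p = 0.469). Its known targets among the members, both measured, differed from each other. AT5G17820 read 5088, 4419.5 and 3796 in WT and 2268, 1822 and 2159 in hni9 at high nitrogen, with no overlap, and fell by 1.08 ± 0.17 (adjusted p = 0.00142). At low nitrogen it read 3660.1, 4086 and 3696 in WT and 3414, 1969.7 and 3128 in hni9, also with no overlap. That change was -0.46 ± 0.17 (adjusted p = 0.221), and the interaction of -0.62 did not pass (adjusted p = 0.35). AT4G11290 rose in hni9 at low nitrogen by 0.44 ± 0.09 (adjusted p = 0.019), from 945, 926 and 817 to 1318, 1169 and 1182. It had 0.12 ± 0.09 at high nitrogen (adjusted p = 0.506), with 1052, 1067 and 1058 in WT and 1225, 1078 and 1159 in hni9. The call of AT4G11290 was lost without WT replicate 2 or 3 at low nitrogen or hni9 replicate 1 at low nitrogen (adjusted p from 0.0557 to 0.0966).

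In the nitrogen response 5 members fell with low nitrogen in both genotypes and 1 rose in both, where 0.906% of all probe sets fell and 1.09% rose in both. PRX71 and AT2G22420 are 2 of the 5, and the other 3 have no role in the lists used here. AT3G49960 read 1214, 1237 and 969 in WT at high and 484, 443 and 389 in WT at low nitrogen, and 912, 962 and 720.2 and 644, 494 and 576 in hni9. High and low nitrogen did not overlap in either genotype. It fell by 1.34 ± 0.14 in WT (adjusted p = 4.48e-05) and by 0.58 ± 0.14 in hni9 (adjusted p = 0.0276). The call in hni9 was lost without hni9 replicate 1 or 2 at high nitrogen or hni9 replicate 2 or 3 at low nitrogen (adjusted p from 0.0681 to 0.102), and stood at -0.40 without hni9 replicate 2 at both supplies.

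AT4G30170 read 4678, 5754 and 5938 in WT at high and 2455, 2428 and 2366 in WT at low nitrogen, against 5253, 5044 and 4720.0 and 4136, 2555 and 3561 in hni9. It fell by 1.16 ± 0.14 in WT (adjusted p = 0.000186) and by 0.58 ± 0.14 in hni9 (adjusted p = 0.0307). The value in hni9 rests in part on replicate 2 at low nitrogen, without which it was -0.38. That call was lost without hni9 replicate 1, 2 or 3 at high nitrogen or hni9 replicate 2 or 3 at low nitrogen (adjusted p from 0.055 to 0.106).

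AT2G37130 was highest in WT at high nitrogen, where it read 7446, 8751 and 8326, against 3144, 3618 and 3129 in WT at low nitrogen. Its values in hni9 were 4239, 4237 and 4181 at high and 3119.9, 1365 and 2723 at low nitrogen. It fell with low nitrogen by 1.31 ± 0.21 in WT (adjusted p = 0.00184) and by 0.89 ± 0.21 in hni9 (adjusted p = 0.0244), and in hni9 at high nitrogen against WT by 0.95 ± 0.21 (adjusted p = 0.0137). The nitrogen call in hni9 was lost without hni9 replicate 1, 2 or 3 at high nitrogen (adjusted p from 0.0594 to 0.0717), and the value was -0.53 without replicate 2 at low nitrogen. The genotype call was lost without WT replicate 2 at high nitrogen (adjusted p = 0.0577).

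AT3G01190 rose with low nitrogen in both genotypes. It read 3624, 4293 and 4596 in WT at high and 5841, 6868 and 6525 in WT at low nitrogen, and 3178, 2961 and 3941 and 6787, 4759 and 8009.8 in hni9. The change was 0.62 ± 0.17 in WT (adjusted p = 0.0399) and 0.93 ± 0.17 in hni9 (adjusted p = 0.00394). The supplies did not overlap in either genotype, and hni9 against WT gave -0.31 ± 0.17 at high and -0.01 ± 0.17 at low nitrogen, neither of which passed. The call in WT was lost without WT replicate 1, 2 or 3 at high nitrogen, WT replicate 1, 2 or 3 at low nitrogen or hni9 replicate 1 at high nitrogen (adjusted p from 0.0544 to 0.162).

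Among the members that passed in WT, the widest nitrogen response upward was that of AT1G14550, from 122, 119 and 138 to 461, 508 and 523, a rise of 1.85 ± 0.38 (adjusted p = 0.00871). In hni9 it read 101, 37.3 and 156 and 239, 104 and 272, a change of 1.01 ± 0.38 that did not pass (adjusted p = 0.176). AT1G34510 had the widest fall in WT, from 322, 432 and 237 to 105, 125 and 48.6, a change of -1.71 ± 0.29 (adjusted p = 0.00231). Its hni9 arrays read 240.2, 223 and 212 and 118, 101 and 126, with no overlap, and the change of -0.88 ± 0.29 did not pass (adjusted p = 0.11). Neither gene passed in the interaction, so a difference between the genotypes was not shown.

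AT1G30870 fell with low nitrogen in WT by 0.60 ± 0.14 (adjusted p = 0.021), from 2512, 2868 and 2567 to 1765, 1785 and 1670.4. The hni9 arrays read 2689, 2558 and 2569 at high and 3301, 1975 and 2973 at low nitrogen, so that it was higher than in WT at low nitrogen by 0.62 ± 0.14 (adjusted p = 0.0364). The genotype call was lost without WT replicate 1 or 3 at high nitrogen, WT replicate 1, 2 or 3 at low nitrogen, hni9 replicate 1 at high nitrogen or hni9 replicate 1 or 3 at low nitrogen (adjusted p from 0.0504 to 0.14). The nitrogen call was lost without WT replicate 2 or 3 at high nitrogen or WT replicate 1, 2 or 3 at low nitrogen (adjusted p from 0.0557 to 0.0954).

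**Figure D3:**
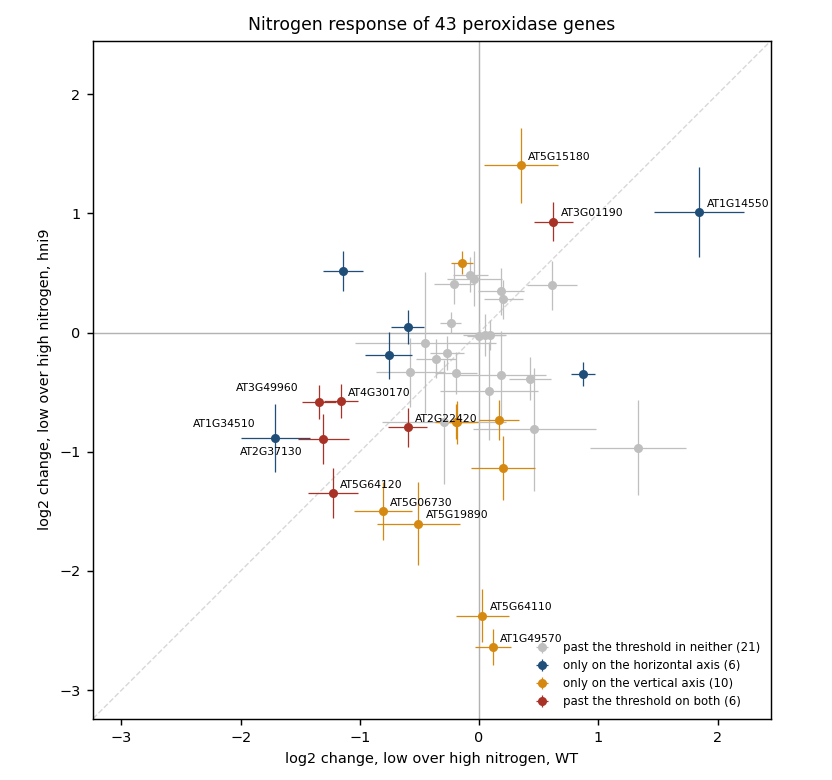
Log2 fold change from high to low nitrogen in WT (horizontal axis) and in hni9 (vertical axis) for the 43 peroxidase genes, coloured by the comparison in which the adjusted p was under 0.05. The 2 axes use different arrays. In WT alone 6 genes passed (3.7% of all probe sets), in hni9 alone 10 (3.06%), in both 6 (2.04%) and in neither 21 (91.2%).

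Within hni9 10 genes passed for nitrogen that did not pass in WT, against 3.06% of all probe sets, and 6 passed in WT and not in hni9, against 3.7%. Besides AT1G49570, AT5G64110 and AT4G33420, AT5G06730 fell by 1.50 ± 0.24 (adjusted p = 0.00199), from 339, 236 and 432 to 91.2, 106 and 119. In WT it read 384, 329 and 437 and 285, 212 and 153, also with no overlap, and the change of -0.81 ± 0.24 did not pass (adjusted p = 0.0712). The interaction for AT5G06730 was 0.69 ± 0.34 (adjusted p = 0.499).

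Prx37 (AT4G08770), whose overexpression dwarfs the plant, and its neighbour AT4G08780 fell together in hni9. Prx37 read 2687, 1724 and 2780.1 in hni9 at high and 1608, 1450.0 and 1189.9 at low nitrogen, a fall of 0.73 ± 0.17 (adjusted p = 0.0192). AT4G08780 read 1425, 794 and 1353 and 784, 618 and 644, a fall of 0.75 ± 0.18 (adjusted p = 0.0263). In both genes replicate 2 was the lowest hni9 array at high nitrogen by a wide margin, and the supplies still did not overlap. In WT the changes were 0.17 ± 0.17 and -0.19 ± 0.18 and did not pass. The interaction was 0.90 ± 0.24 for Prx37 (adjusted p = 0.12) and 0.57 ± 0.26 for AT4G08780 (adjusted p = 0.442). Neither passed, so a difference between the genotypes in the nitrogen response was not shown. The calls in hni9 were lost for Prx37 without hni9 replicate 1 or 3 at high nitrogen or hni9 replicate 3 at low nitrogen (adjusted p from 0.0852 to 0.0884) and for AT4G08780 without hni9 replicate 1 or 3 at high nitrogen or hni9 replicate 2 or 3 at low nitrogen (adjusted p from 0.0766 to 0.121). The 2 are close relatives, and whether their probes tell them apart was not tested.

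AT5G15180 rose in hni9 with low nitrogen by 1.40 ± 0.31 (adjusted p = 0.0167), from 145, 119 and 205 to 629, 210.3 and 597. Replicate 2 at low nitrogen lay far under the other 2 and just above the highest array at high nitrogen, and the call was lost without hni9 replicate 1 or 2 at high nitrogen or hni9 replicate 1 or 3 at low nitrogen (adjusted p from 0.0564 to 0.0871). In WT AT5G15180 read 257, 319 and 293 at high and 388, 375 and 355 at low nitrogen, also with no overlap. That change of 0.35 ± 0.31 did not pass (adjusted p = 0.64), nor did the interaction (adjusted p = 0.396). AT5G19890 was the only other member besides AT1G49570 and AT5G64110 that rose in hni9 at high nitrogen. It read 219, 172 and 155 in WT and 270.4, 777 and 482 in hni9 there, a rise of 1.301 (adjusted p = 0.0346), and 139, 77.4 and 166 and 133, 204 and 107 at low nitrogen. Within hni9 it fell by 1.60 ± 0.35 with low nitrogen (adjusted p = 0.0143). The rise was 0.94 without hni9 replicate 2 at high nitrogen, and it was lost without WT replicate 1, 2 or 3 at high nitrogen or hni9 replicate 2 or 3 at high nitrogen (adjusted p from 0.0582 to 0.134). The fall was lost without hni9 replicate 2 at high nitrogen or hni9 replicate 1 or 3 at low nitrogen (adjusted p from 0.0546 to 0.0643).

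Of the genes that fell in hni9, 4 did so at both supplies, AT1G44970, AT4G26010, AT4G33420 and AT5G39580, where 0.765% of all probe sets did. AT1G44970, a peroxidase known from extensin in the tapetum of anthers, read 869.7, 1030.3 and 918 in WT at high and 775, 858 and 821 in WT at low nitrogen. Its values in hni9 were 576, 517 and 659 and 382, 256 and 400.2, under every WT array. It fell by 0.68 ± 0.15 at high (adjusted p = 0.013) and fell by 1.23 ± 0.15 at low nitrogen (adjusted p = 0.000534), and within hni9 by 0.75 ± 0.15 from high to low nitrogen (adjusted p = 0.00873). The nitrogen call was lost when only the 2 groups were fitted (adjusted p = 0.0896) and with replicates 1 and 2 alone (adjusted p = 0.0912). The call at high nitrogen was lost without WT replicate 2 at high nitrogen (adjusted p = 0.0632).

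AT4G36430 fell in hni9 at low nitrogen by 1.61 ± 0.27 (adjusted p = 0.00583), from 4089.9, 5188 and 3782 in WT to 2079.8, 950.2 and 1406. At high nitrogen it read 3194, 3924 and 4197 in WT and 3948, 1992 and 3827 in hni9, groups that overlapped. Its fall with low nitrogen within hni9, -1.14 ± 0.27 (adjusted p = 0.023), passed although replicate 2 at high nitrogen lay under replicate 1 at low nitrogen. That call was lost without hni9 replicate 1 or 3 at high nitrogen or hni9 replicate 2 or 3 at low nitrogen (adjusted p from 0.0655 to 0.104). The interaction for AT4G36430 was 1.34 ± 0.38 and did not pass (adjusted p = 0.157), so a difference between the supplies was not shown.

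At high nitrogen alone, 3 more genes without a listed role fell in hni9. AT2G18980 read 4948, 5193 and 5023 in WT and 2987, 2358 and 3208 in hni9, a fall of 0.83 ± 0.15 (adjusted p = 0.00305). AT1G68850 read 926, 1097 and 1209 and 581, 292 and 520.3, a fall of 1.24 ± 0.23 (adjusted p = 0.00432). AT2G39040 read 458, 435 and 431 and 213, 173 and 198, a fall of 1.12 ± 0.20 (adjusted p = 0.00309). In each of these 3 genes all hni9 arrays lay under all WT arrays. AT2G39040 also fell with low nitrogen in WT, to 242, 260.1 and 259.8, by 0.76 ± 0.20 (adjusted p = 0.0359), a call lost without WT replicate 1, 2 or 3 at high nitrogen or WT replicate 1, 2 or 3 at low nitrogen (adjusted p from 0.088 to 0.12). At low nitrogen the genotype changes of these genes were -0.28 ± 0.15, -0.74 ± 0.23 and -0.56 ± 0.20 and did not pass. AT1G68850 read 1049.5, 1028 and 1046 in WT and 784, 431 and 689 in hni9 there, also with no overlap. None of the 3 genes passed in the interaction, so a difference between the supplies was not shown.

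**Figure D4:**
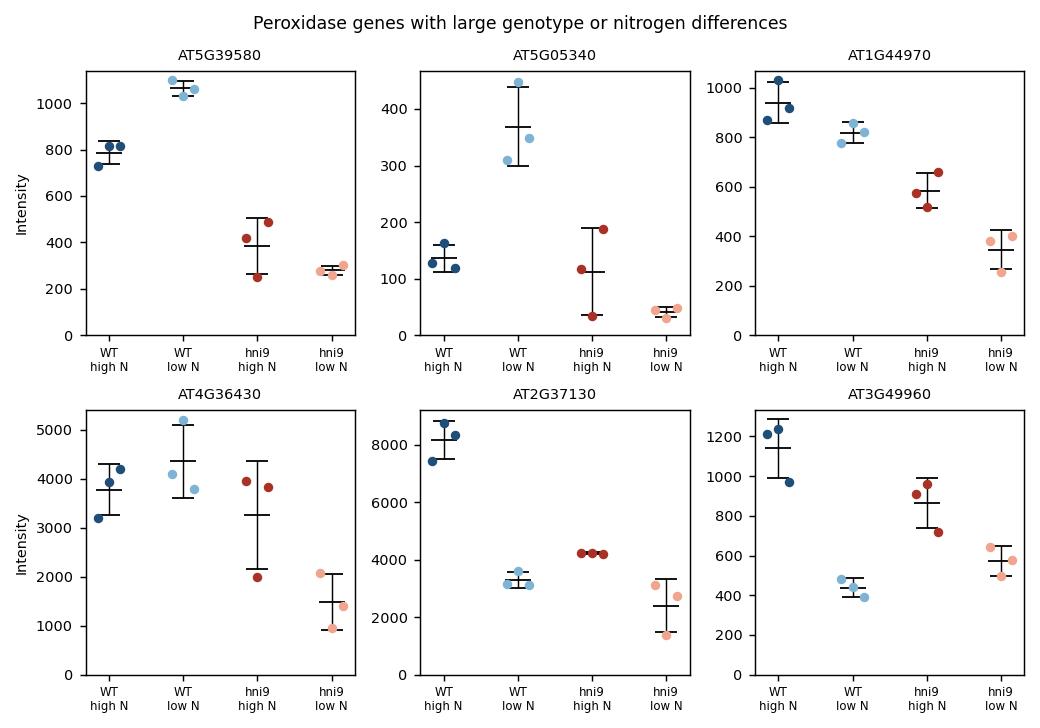
Intensity (linear axis from 0) in each array for AT5G39580, AT5G05340, AT1G44970, AT4G36430, AT2G37130 and AT3G49960. Points are the 3 arrays of a group and the bars the mean ± SD. AT5G39580 and AT1G44970 are lower in hni9 at both supplies, AT5G05340 is high in WT at low nitrogen, and AT3G49960 is lower at low nitrogen in both genotypes.

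**Figure D5:**
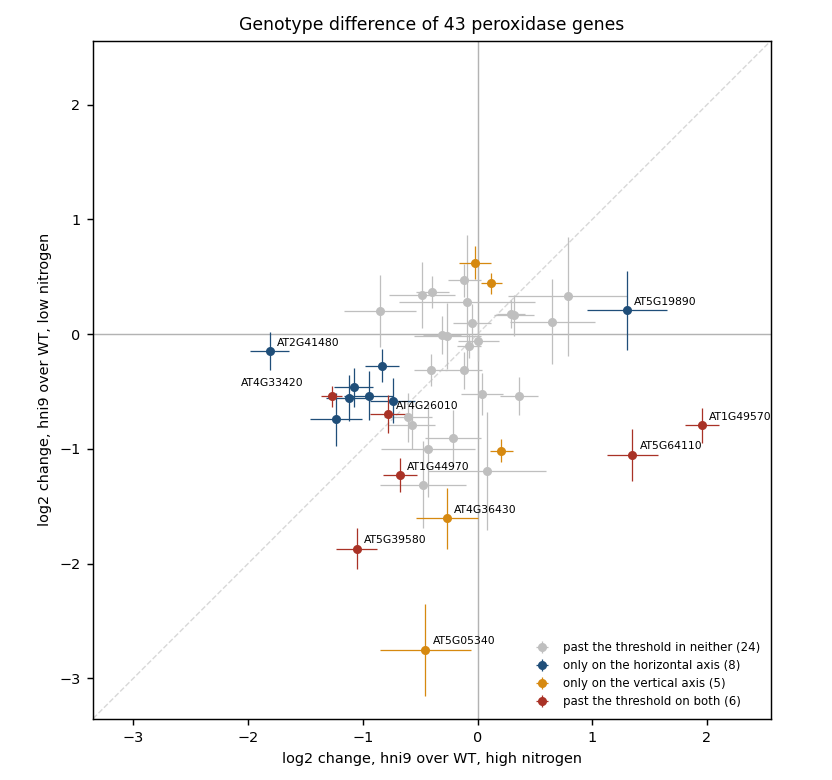
Log2 fold change of hni9 against WT at high nitrogen (horizontal axis) and at low nitrogen (vertical axis) for the 43 peroxidase genes, coloured by the comparison in which the adjusted p was under 0.05. The 2 axes use different arrays. At high nitrogen alone 8 genes passed (6.6% of all probe sets), at low nitrogen alone 5 (0.998%), at both 6 (1.06%) and in neither 24 (91.3%), and AT1G49570 and AT5G64110 lie to the right of 0 and under it.

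Across both supplies 29 of 43 genes (67.4%) had a genotype change of the same sign, against 59.5% of all probe sets. The 6 that passed at both supplies were the 4 lowered ones above and the pair AT1G49570 and AT5G64110, which changed direction, where 0.0396% of all probe sets passed in opposite directions.

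For the peroxidase genes, calls lost when 1 array is left out are given with each gene, and other alternatives also ended calls. The other genes named here, such as EXPA7 and EXPA18, were read in the main fit alone. Of the 58 calls, 22 passed under every alternative that was run. For nitrogen in WT these were AT1G34510, AT2G41480, AT3G49960, AT4G30170 and AT5G64100. For nitrogen in hni9 they were AT1G49570, AT3G01190, AT4G33420, AT5G06730, AT5G64110 and AT5G64120. For hni9 against WT they were AT1G49570, AT2G18980, AT2G41480, AT4G33420, AT5G17820, AT5G39580 and AT5G64110 at high nitrogen, and AT1G44970, PRX52, AT5G39580 and AT5G64100 at low nitrogen. Every other call of a peroxidase gene was lost under at least 1 alternative, most often with replicates 1 and 2 alone or without the intensity trend.

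The 3 loci listed for the apoplastic oxidative burst of defence had no probe set of their own. A further 13 genes passed in none of the comparisons, against 86.1% of all probe sets. PRXR1 (AT4G21960) read 14898, 16142 and 16266 in WT at high and 16547, 14870.0 and 15948 in WT at low nitrogen, and 14878, 15648 and 14333 and 14396, 14072 and 15560.0 in hni9. All 4 groups overlapped, and the 95% intervals of its 4 changes lay within -0.33 to 0.23. AT1G71695 was as level in its means, with changes of -0.06 to 0.05, and its intervals lay within -0.44 to 0.43. The other 5 bright ones were AT3G21770, AT3G28200, AT5G14130, AT5G40150 and AT5G51890, and the changes of all 7 bright genes ranged from -0.79 to 0.61. AT5G14130 came nearest to the threshold, with 0.61 ± 0.21 for low nitrogen in WT and -0.79 ± 0.21 for hni9 at low nitrogen, at a lowest adjusted p of 0.0697 by limma. The 6 dim genes, AT1G24110, AT2G34060, AT3G03670, AT5G19880, AT5G58390 and AT5G58400, had changes of -1.19 to 0.78 with standard errors of 0.29 to 0.59, so small changes in them are not resolved.

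Of 103 other loci of peroxide, lignin, suberin and root biology that were listed for context, 14 were measured. None of 6 xylem markers and none of 10 laccases, which polymerise lignin alongside peroxidases, had a probe set of their own. RBOHG, an NADPH oxidase of the kind that produces superoxide, fell by 1.62 ± 0.22 in hni9 at high nitrogen (adjusted p = 0.000428). There it read 389 ± 34.4 in WT and 118 ± 33.8 in hni9 (SD, n = 3). It rose within hni9 from high to low nitrogen by 0.83 ± 0.22 (adjusted p = 0.0397), while RBOHE and RBOHI passed in 0 of the comparisons. FACT, which makes alkyl caffeates associated with root suberin, fell by 0.78 ± 0.21 in hni9 at high nitrogen (adjusted p = 0.0397) and rose by 0.79 ± 0.21 with low nitrogen in hni9 (adjusted p = 0.0483). Of the Casparian strip genes, the receptor kinase gene SGN3 rose by 0.50 ± 0.12 with low nitrogen in hni9 (adjusted p = 0.022) and the kinase gene SGN1 was higher in hni9 at low nitrogen by 0.53 ± 0.11 (adjusted p = 0.0204). HCT of monolignol synthesis rose by 0.32 ± 0.08 with low nitrogen in hni9 (adjusted p = 0.0451), and CCR2 and the ascorbate peroxidases SAPX and TAPX passed in 0 of the comparisons.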

How the data were processed

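The deposited table holds 1 intensity for each of 22810 probe sets on each of 12 Affymetrix arrays, on a linear scale. For the program that the authors used to summarise probes, the sources used here give no name. Values show that each array was scaled to a mean of 500 after trimming 2% at each end. Control probe sets (64) were left out. Genes were named through the platform annotation, 13513 probe sets with 1 gene, 503 with several and 8730 not listed, and 13436 of the first were matched to loci in RefSeq. The array build is not named, so RefSeq served for names and for which genes are neighbours. Intensities plus 16 were taken to log2 and fitted with limma 3.58.1 in R 4.3.3 (lmFit, 1 mean per group over all 12 arrays, eBayes with an intensity trend). Benjamini-Hochberg adjustment ran over 22746 probe sets with a threshold of 0.05, and intervals are 95%. No member was dropped for low values.

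The members, their roles and the other gene lists were chosen with earlier results of these data known. By the naming rule, every member past the threshold is named, array values are given for up to 6 members per comparison and direction and for every interaction call, and other members are given by count and range. The text gives array values for some further members. The script was tested on simulated data. Alternatives changed the value added, the normalization, the variance model, a filter on dim probe sets, the replicate number, the groups in the fit and the arrays. Replicate numbers did not pair the arrays by the rule used (correlation over 0.1 in every pair), though every pair of replicate 3 arrays was over 0.1. The main fit left the number out, and a fit with it as a block is given below. Precision is limited by 3 arrays a group.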

Additional observations from a re-analysis of the deposited data

Results flagged for a closer look

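For 5 genes the difference between hni9 and WT at high nitrogen differed from that at low nitrogen by the interaction test in limma, with 0.703% of all probe sets past the same threshold. The interaction was 2.75 for AT1G49570 (adjusted p = 3.41e-05) and 2.40 for AT5G64110 (adjusted p = 0.00396), where hni9 was above WT at high nitrogen and under it at low nitrogen in 3 of 3 arrays each. It was 1.22 for AT5G64100 (adjusted p = 0.00159), with hni9 under WT in 3 of 3 arrays at low nitrogen. For AT2G41480 it was -1.66 (adjusted p = 0.00553), with hni9 under WT in 3 of 3 arrays at high nitrogen. For AT4G33420 it was -0.73 (adjusted p = 0.0217), with hni9 under WT in 3 of 3 arrays at both supplies and further under it at high nitrogen. All 5 calls were lost with replicates 1 and 2 alone (adjusted p from 0.0524 to 0.181 by limma), and those of AT2G41480 and AT4G33420 also without the intensity trend (adjusted p of 0.05, just over the threshold, and 0.151). The cause of these differences was not tested.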

How the results depend on the processing

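Of 58 changes of the peroxidase genes called by limma, 22 passed under every alternative that was run and 0 changed direction. Adding 1 or 64, quantile normalization and leaving out the dimmest 40% of probe sets each lost 0 calls, median centring lost 10, dropping the intensity trend 25, fitting only the 2 groups compared 14 of 53, and replicates 1 and 2 alone 35. With replicates 1 and 2 alone, the members higher and lower numbered 1 and 4 for nitrogen in WT, 5 fell for nitrogen in hni9, 5 fell in hni9 at high nitrogen, 0 and 4 passed in hni9 at low nitrogen, and 0 and 0 in the interaction, where that setting called 1 of all probe sets. Without the trend, 6 fell for nitrogen in hni9, 7 fell in hni9 at high nitrogen, 0 rose and 5 fell at low nitrogen, and 0 were negative in the interaction. With only the 2 groups compared, 6 rose for nitrogen in WT, 4 fell for nitrogen in hni9 and 0 rose in hni9 at low nitrogen. Median centring left 1 rise in hni9 at low nitrogen, and moved the median of all probe sets by under 0.1 in each comparison. Without hni9 replicate 2 at both supplies, chosen after seeing the data, 6 rose for nitrogen in WT, 6 in hni9, 4 rose in hni9 at low nitrogen, and the interaction had 8 positive and 8 negative. That setting lost 3 calls, AT3G49960 and AT4G30170 for nitrogen in hni9 and AT5G19890 at high nitrogen. Leaving out 1 array at a time gave, for higher and lower members, 2 to 5 and 6 to 9 for nitrogen in WT, 2 to 6 and 7 to 14 for nitrogen in hni9, 2 to 4 and 7 to 13 in hni9 at high nitrogen, 0 to 3 and 6 to 15 at low nitrogen, and 3 to 8 and 1 to 7 in the interaction. Over all probe sets the calls fell from 1305, 1160, 1744, 469 and 160 in that order to 795, 647, 929, 156 and 21 without the trend, and to 413, 362, 482, 83 and 1 with replicates 1 and 2 alone. The cause of these shifts was not tested.

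Replicate numbers are shared across groups in the labels. Same-numbered arrays correlated at -0.01 to 0.30 over 18 pairs, 9 of them over 0.1, so the numbers were not taken as pairs. Yet 11 of 12 arrays correlated best with their own number, and the median was 0.10 for the same number and -0.07 for others. Every pair of replicate 3 arrays was over 0.1, at 0.149 to 0.298. Replicate 3 is numbered apart from replicates 1 and 2 in the sample records, and whether it was a separate batch is not given. With the replicate block, members higher and lower numbered 3 and 8 for nitrogen in WT, 3 and 13 in hni9, 3 and 12 in hni9 at high nitrogen, 2 and 10 at low nitrogen and 3 and 2 in the interaction, and 1 call was lost, AT2G22420 in WT (adjusted p = 0.0579 by limma). The mean of several probe sets per gene was not run, because 0 members have more than 1. For the 6 dim members small changes are not resolved at their signal.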
